A study of Mus musculus with 9 samples.

Results

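The genes that load and display peptides on MHC class II molecules were read in circulating monocytes of Ccr2-/- mice, which lack the receptor for the chemokine CCL2, of Ccl2-/- mice, which lack the chemokine itself, and of wild type mice. The genes were H2-Aa, H2-Ab1, H2-Eb1, H2-DMa, Cd74 and Ciita, taken by symbol, and they are 6 of the 19938 genes tested. Each had 1 transcript cluster on the Affymetrix Mouse Gene 1.0 ST array, and all 6 had a mean intensity over 100. All mice were tumor-free, 14 to 18 weeks old and of the Balb/c strain, and both knockout lines had been crossed back to Balb/cJ from time to time. The knockouts are germline deletions, so other cells than monocytes lacked the gene as well. Each genotype had 3 arrays, 9 over the series, and every array carried RNA pooled from the blood of 5 mice. Antibodies to MHC class II, Ly-6G, CCR3, CD4, CD8 and B220 removed other leukocytes on a magnetic column, and CD11b-positive cells were then selected. The values are therefore transcript levels in cells left after a depletion that was itself directed at surface class II.

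MHC class II molecules are pairs of an alpha and a beta chain that show peptides from engulfed proteins to CD4 T cells. The chains assemble in the endoplasmic reticulum with the invariant chain, encoded by Cd74, which fills the peptide groove and steers the complex to endosomes. Proteases there cut the invariant chain down to a short remnant, and H2-DM exchanges the remnant for a peptide. Transcription of these genes depends on CIITA, a coactivator without DNA binding of its own, which docks on RFX, CREB and NF-Y proteins at the conserved X and Y boxes of the promoters. Dendritic cells, B cells and macrophages are the main class II-positive cells, and classical monocytes can acquire class II when they enter tissue.

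The X and Y boxes are shown here because they are the shared control region of the class II genes, whose levels parted in the results. The RefSeq table of promoter windows, which cover 250 bases before to 50 bases after a transcript start, held 3 of the 6 genes: H2-Aa, H2-Eb1 and H2-DMa. Windows were searched on both strands for GCAAC, a core of the X box, followed within 40 bases by ATTGG, the Y box that NF-Y binds, and these letters were chosen after the sequences had been read. H2-Aa, H2-Eb1 and the related genes H2-Eb2, H2-Oa and H2-Ob each held the motif couple on the strand of the gene, as did 0.828% of all 32851 windows, while 1.76% of the windows held it on either strand. Each line gives 70 bases of build GRCm38.p6 from RefSeq, 5′ to 3′ on the strand of the gene, with GCAAC and ATTGG in capitals.
H2-Aa (chr17:34287852-34287921, minus strand): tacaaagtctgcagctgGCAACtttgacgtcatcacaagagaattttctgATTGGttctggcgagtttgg
H2-Eb1 (chr17:34305758-34305827, plus strand): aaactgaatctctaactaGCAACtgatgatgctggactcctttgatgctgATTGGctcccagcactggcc
H2-Eb2 (chr17:34325525-34325594, plus strand): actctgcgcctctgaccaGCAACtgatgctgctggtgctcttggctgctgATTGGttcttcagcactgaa
H2-Oa (chr17:34092286-34092355, plus strand): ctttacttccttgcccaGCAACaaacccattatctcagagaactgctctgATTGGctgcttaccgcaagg
H2-Ob (chr17:34238798-34238867, plus strand): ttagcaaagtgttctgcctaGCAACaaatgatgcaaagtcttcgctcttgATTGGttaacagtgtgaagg
The boxes were 28 bases apart in H2-Aa and H2-Oa, 27 bases in H2-Eb1 and H2-Eb2, and 25 bases in H2-Ob. H2-DMa had 2 windows, neither with GCAAC before ATTGG in that distance, and 1 of them held ATTGG alone, as did 22.1% of all windows on the strand of the gene. The reference is the C57BL/6J genome, and no Balb/c sequence was used.

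The Ccr2-/- label was checked by the level of Ccr2 itself, and no such check was made here for Ccl2-/-. Ccr2 had log2 intensities of 9.41, 9.44 and 9.47 on the Ccr2-/- arrays, against 13.26, 13.02 and 12.99 on the wild type arrays. The monocyte genes Itgam, which encodes CD11b, and Lyz2, which encodes lysozyme, had log2 intensities of 12.84 to 12.91 and 13.84 to 13.90 on the Ccr2-/- arrays, and of 12.81 to 12.91 and 13.99 to 14.06 on the wild type arrays. They belong to a list of 9 measured monocyte and macrophage markers, of which 6 fell in Ccr2-/- against wild type, beside 8.38% of all genes. The log2 fold changes of that list were -1.37 to 0.04, with a median of -0.35. The 12 NK cell markers, receptors and cytotoxic granule genes, had a summed intensity of 93369 to 96703 on Ccr2-/- arrays, 68256 to 82792 on Ccl2-/- arrays and 54968 to 59488 on wild type arrays. The array median was 430.8 on Ccl2-/- replicate 1 and 324.1 to 355.1 on the other arrays. In this RNA from many cells, fewer cells of a type and less RNA per cell cannot be told apart.

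Compared to wild type, Ccr2-/- monocytes had lower levels of H2-DMa, Cd74 and Ciita, at 0.615-, 0.549- and 0.703-fold. H2-Aa and H2-Ab1 were at 0.499- and 0.517-fold and did not pass the test over 9 arrays, though both passed in a fit of the 6 arrays compared (limma adjusted p = 0.00275 and 0.00384), and H2-Eb1 was at 0.870-fold. No member passed in Ccl2-/- against wild type, where H2-Aa was at 0.491-fold. Between the knockouts, H2-DMa was lower in Ccr2-/- monocytes, at 0.730-fold. A gene passed, or was called, where the adjusted p of limma's test across all genes was under 0.05.

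**Figure D1:**
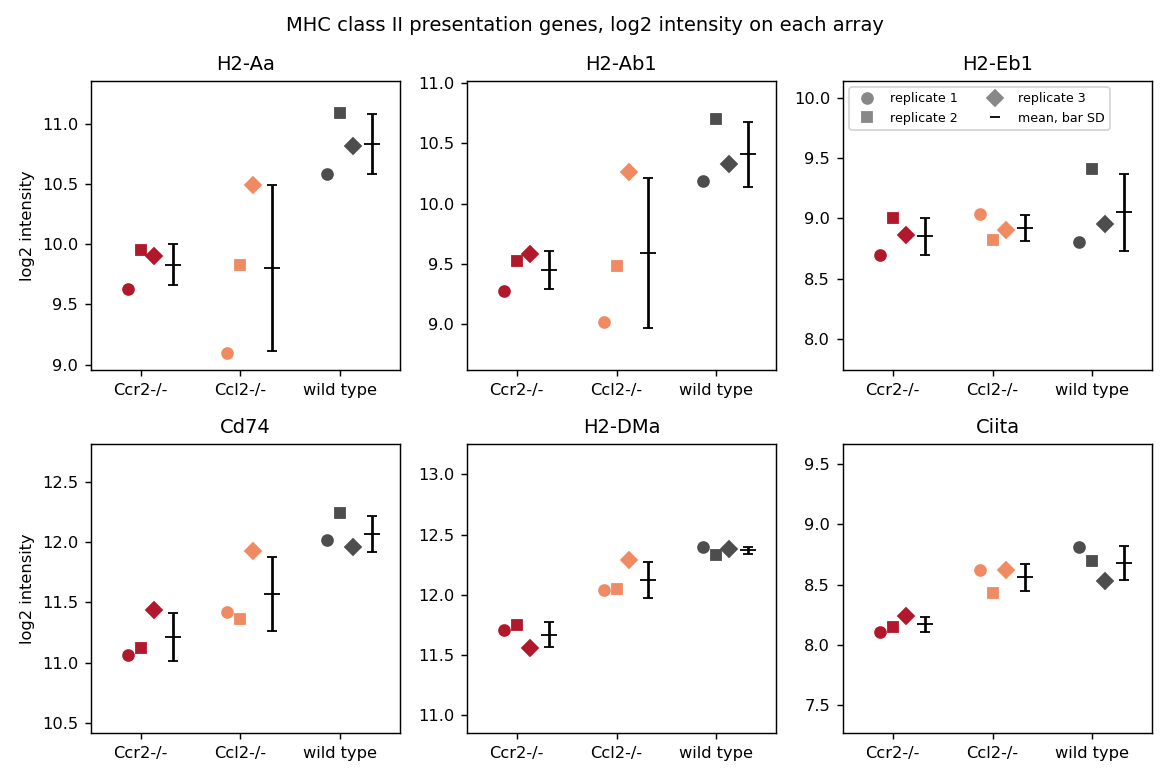
Log2 intensity of the 6 class II presentation genes on each array, with genotypes along the horizontal axis and symbols for the replicates. Bars are the mean and SD of 3 arrays, each vertical axis spans the same 2.4 log2 units, and the Ccl2-/- arrays of H2-Aa reach over 1.39 log2 units, against 0.32 in Ccr2-/- and 0.51 in wild type.

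The peptide-binding chains are given first. H2-Aa, the alpha chain of the I-A molecule, had log2 intensities of 9.63, 9.95 and 9.90 on the Ccr2-/- arrays, 9.10, 9.83 and 10.49 on the Ccl2-/- arrays, and 10.58, 11.09 and 10.81 on the wild type arrays. Every array of either knockout was below every wild type array, but the third Ccl2-/- array lay within 0.1 of the lowest wild type array while the first was the lowest of all. The log2 fold change in Ccr2-/- against wild type was -1.0 ± 0.31 (SE, n = 3 arrays each, adjusted p = 0.0709), and in Ccl2-/- against wild type it was -1.03 ± 0.31 (adjusted p = 0.213). The 95% intervals of the folds were 0.307 to 0.812 and 0.302 to 0.799. The knockouts did not differ beyond their spread, with a fold of 1.02 in Ccr2-/- over Ccl2-/- and an interval of 0.625 to 1.65.

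H2-Ab1, the beta chain that pairs with H2-Aa, had log2 intensities of 9.27, 9.52 and 9.58 on the Ccr2-/- arrays, 9.02, 9.48 and 10.26 on the Ccl2-/- arrays, and 10.19, 10.70 and 10.33 on the wild type arrays. The order of the arrays was close to that of H2-Aa, except that the third Ccl2-/- array lay above the first wild type array, so that those groups overlapped. The log2 fold change was -0.95 ± 0.28 in Ccr2-/- against wild type (SE, n = 3 arrays each, adjusted p = 0.0638) and -0.82 ± 0.28 in Ccl2-/- against wild type (adjusted p = 0.276). Both I-A genes passed in Ccr2-/- against wild type when either the first or the third Ccl2-/- array was left out, and both passed in Ccl2-/- against wild type without the third Ccl2-/- array (log2 fold changes -1.37 and -1.15, adjusted p = 0.034 and 0.0329).

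H2-Eb1, the beta chain of the I-E molecule, showed another pattern. Its log2 intensities were 8.70, 9.0 and 8.86 on the Ccr2-/- arrays, 9.04, 8.82 and 8.90 on the Ccl2-/- arrays, and 8.80, 9.41 and 8.95 on the wild type arrays. The 3 genotypes overlapped, and the second wild type array stood above the rest. The fold was 0.870 in Ccr2-/- over wild type (95% interval 0.678 to 1.12, adjusted p = 0.584) and 0.912 in Ccl2-/- over wild type (0.711 to 1.17, adjusted p = 0.665), so a fall of the size seen for H2-Aa lay outside both intervals. The direction in Ccl2-/- against wild type turned to a log2 fold change of 0.04 without the second wild type array. On wild type arrays H2-Eb1 lay at percentile 53.6 to 63.1 of the genes, against 80.7 to 86.8 for H2-Aa. The part of this lower level, or of the Balb/c sequence of the gene, in its small fold was not tested.

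The difference between the I-A and I-E chains was read as a log2 ratio within each array, a comparison chosen after the values had been seen. H2-Aa minus H2-Eb1 was 0.93, 0.95 and 1.04 on the Ccr2-/- arrays, 0.06, 1.01 and 1.58 on the Ccl2-/- arrays, and 1.78, 1.68 and 1.86 on the wild type arrays. Every knockout array was below every wild type array. The mean difference was -0.80 in Ccr2-/- against wild type and -0.89 in Ccl2-/- against wild type, each with p = 0.1 in a two-sided exact permutation test, the smallest that 3 arrays against 3 allow. With H2-Ab1 or H2-Ea in place of H2-Aa, 9 such tests were run, and these p-values were 0.18 after Benjamini-Hochberg adjustment over the 9. For H2-Ab1 minus H2-Eb1 the mean difference was -0.75 in Ccr2-/- against wild type (exact permutation p = 0.1) and -0.68 in Ccl2-/- against wild type (exact permutation p = 0.2, adjusted p = 0.3). A test of this size could not pass the threshold, so the ratios are given as a description.

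H2-Ea, the alpha chain that pairs with H2-Eb1, stood on the list of other pathway genes. It is annotated as a pseudogene in the C57BL/6J reference and is known to be working in Balb/c mice. Its log2 intensities were 10.15, 10.50 and 10.65 on the Ccr2-/- arrays, 9.95, 10.63 and 11.19 on the Ccl2-/- arrays, and 11.15, 11.81 and 11.42 on the wild type arrays. The first and the third Ccl2-/- arrays were again the lowest and the highest of their genotype, as for H2-Aa and H2-Ab1. The log2 fold change was -1.03 ± 0.31 in Ccr2-/- against wild type (adjusted p = 0.0631) and -0.87 ± 0.31 in Ccl2-/- against wild type (adjusted p = 0.28; SE, n = 3 arrays each). The partner chains of I-E thus gave unlike values, and H2-Ea minus H2-Eb1 was 1.45 to 1.79 on Ccr2-/- arrays, 0.90 to 2.29 on Ccl2-/- arrays and 2.34 to 2.47 on wild type arrays. The second I-E beta chain gene, H2-Eb2, was not called in any comparison (adjusted p = 0.266 to 0.762).

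Cd74, the invariant chain, fell in Ccr2-/- monocytes. Its log2 intensities were 11.06, 11.12 and 11.44 on the Ccr2-/- arrays, 11.42, 11.36 and 11.93 on the Ccl2-/- arrays, and 12.02, 12.24 and 11.96 on the wild type arrays. All arrays of both knockouts lay below the wild type arrays, the third Ccl2-/- array only by a small margin. The log2 fold change was -0.86 ± 0.17 in Ccr2-/- against wild type (SE, n = 3 arrays each, adjusted p = 0.01), and the adjusted p was 0.0502 without the first Ccr2-/- array. Ccl2-/- monocytes had a log2 fold change of -0.50 ± 0.17 against wild type (adjusted p = 0.264). The knockouts overlapped, with a fold of 0.777 in Ccr2-/- over Ccl2-/- (95% interval 0.595 to 1.01).

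H2-DMa, the alpha chain of the peptide editor H2-DM, had the narrowest spread in wild type. Its log2 intensities were 11.71, 11.75 and 11.56 on the Ccr2-/- arrays, 12.04, 12.05 and 12.29 on the Ccl2-/- arrays, and 12.40, 12.33 and 12.38 on the wild type arrays. The 3 genotypes did not overlap and followed each other in that order. H2-DMa fell in Ccr2-/- against wild type, with a log2 fold change of -0.70 ± 0.09 (SE, n = 3 arrays each, adjusted p = 0.00143), and in Ccr2-/- against Ccl2-/-, with -0.45 ± 0.09 (adjusted p = 0.0343). The call between the knockouts was lost after centring the arrays on their medians (adjusted p = 0.295), in the fit of the 6 arrays compared (0.141), and when any single array but replicate 1 of Ccl2-/- was left out (0.0645 to 0.125). Ccl2-/- monocytes had -0.25 ± 0.09 against wild type (adjusted p = 0.295). The beta chain genes H2-DMb1 and H2-DMb2 share a transcript cluster with both symbols and were not analysed here.

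Ciita, the master regulator of class II transcription, had log2 intensities of 8.11, 8.15 and 8.24 on the Ccr2-/- arrays, 8.62, 8.43 and 8.62 on the Ccl2-/- arrays, and 8.81, 8.70 and 8.53 on the wild type arrays. The Ccr2-/- arrays were below all the others, while Ccl2-/- and wild type overlapped. Ciita fell in Ccr2-/- against wild type, with a log2 fold change of -0.51 ± 0.09 (SE, n = 3 arrays each, adjusted p = 0.00739). The log2 fold change was -0.39 ± 0.09 in Ccr2-/- against Ccl2-/- (adjusted p = 0.0619) and -0.12 ± 0.09 in Ccl2-/- against wild type (adjusted p = 0.541). Ciita lay at percentile 37.0 to 40.3 of the genes on Ccr2-/- arrays, 41.1 to 50.4 on Ccl2-/- arrays and 49.2 to 53.6 on wild type arrays. How far background signal entered a value of this level was not tested. The array gives 1 value for the gene and does not separate transcripts from its alternative promoters.

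The counts over the members were read against those over all genes. Against wild type, 3 of 6 members fell and 0 rose in Ccr2-/- monocytes, and 8.38% of all genes fell. The count was 5 without replicate 1 or replicate 3 of Ccl2-/-, with H2-Aa and H2-Ab1 added, and 2 without replicate 1 of Ccr2-/-. Non-overlapping lower arrays were found for 5 of 6 members and 18.1% of all genes. The methods of the study named size limits in place of a test, a ratio over 1.2 and a difference over 100, applied here to group means of the linear values, and 5 of 6 members and 9.21% of all genes were lower by these limits. The median log2 fold change was -0.78 over the members and 0.01 over all genes.

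No member (0 of 6) was called by limma in Ccl2-/- against wild type, where 0.0853% of all genes fell and 0.0752% rose. The count was 2 without replicate 3 of Ccl2-/-. At an unadjusted p under 0.05 there were 4 members, and 13.1% of all genes. Lower arrays without overlap were found for 3 members (H2-Aa, Cd74 and H2-DMa) and 9.31% of all genes, and 3 members (H2-Aa, H2-Ab1 and Cd74) and 3.76% of all genes were lower by the size limits. The median log2 fold change was -0.37 over the members and 0.08 over all genes. Between the knockouts 1 member fell in Ccr2-/- monocytes, with 2.87% of all genes, the arrays of 2 members (H2-DMa and Ciita) did not overlap, with 16% of all genes, and 2 members (H2-DMa and Cd74) were lower by the size limits, with 9.16% of all genes. In this comparison 79.7% of all calls were lower, against 56.0% after quantile normalization and 28.4% after centring the arrays on their medians, which moved the median of all genes by 0.11 log2 units. The share in Ccr2-/- against wild type was 63.1%, against 51.1% after quantile normalization. All 6 members kept a log2 fold change below 0 against wild type, in either knockout, under both of these scalings.

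**Figure D2:**
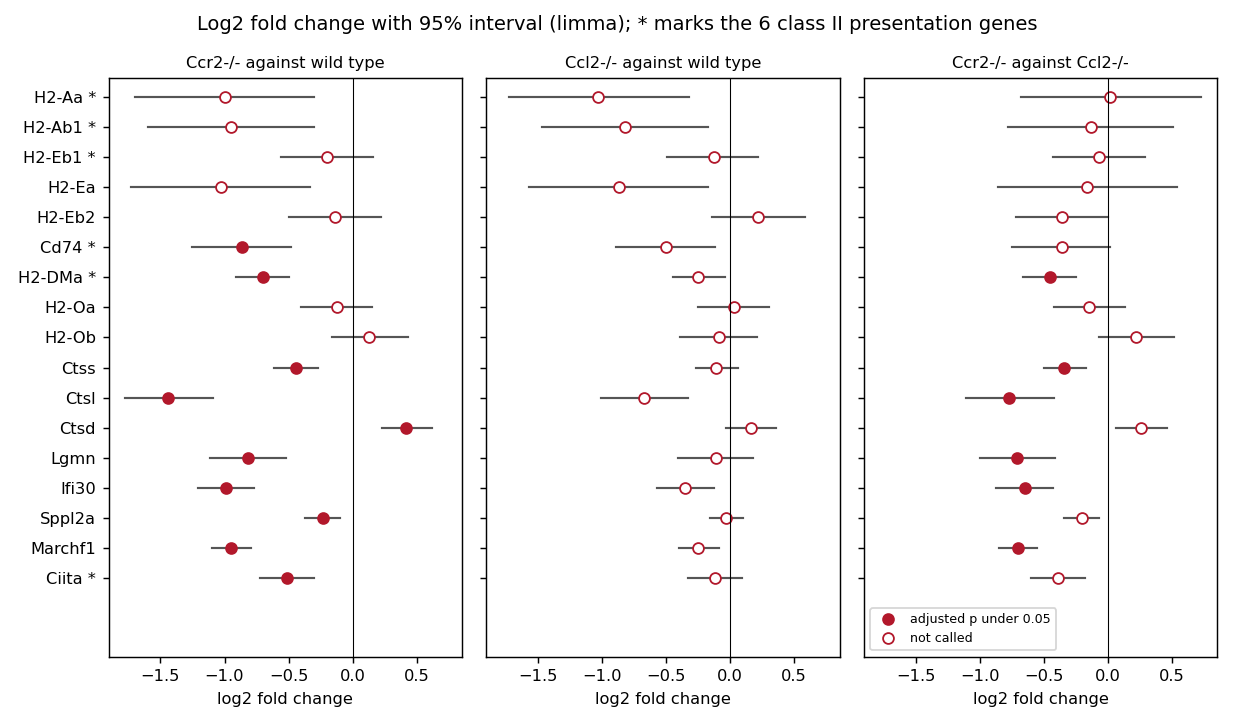
Log2 fold change of the 6 class II presentation genes (marked with an asterisk) and of pathway genes, with 95% intervals from limma, in the 3 comparisons. Filled points had an adjusted p under 0.05, and H2-DMa, Cd74 and Ciita are filled in Ccr2-/- against wild type, at -0.70, -0.86 and -0.51.

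The I-A genes had a wide spread within Ccl2-/-. The SD over the 3 Ccl2-/- arrays was 0.69 for H2-Aa and 0.62 for H2-Ab1, larger than for 97.3% and 96.0% of all genes, whose median SD was 0.18. It was also 0.63 for H2-Ea and 0.63 for Irf4, a regulator of dendritic cell genes described with the regulators of Ciita, but 0.11 for H2-Eb1 and 0.11 for Ciita. The SD of H2-Aa and H2-Ab1 was larger than for 85.1% and 83.3% of genes in Ccr2-/-, and than for 92.1% and 93.2% in wild type. In linear terms the highest Ccl2-/- array was 2.62 times the lowest for H2-Aa, 2.35 times for H2-Ab1 and 1.17 times for H2-Eb1. In Ccr2-/- these ratios were 1.24, 1.24 and 1.23.

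Several marker sums also differed among the Ccl2-/- arrays. On replicates 1, 2 and 3 the summed intensity of the class II members, H2-Aa and H2-Ab1 included, was 8933, 9286 and 12447. The summed Ly-6Chi monocyte markers, genes of the classical subset, were at 28175, 28816 and 32949, and the NK cell markers at 82792, 77990 and 68256. The conventional dendritic cell markers were at 10118, 10838 and 11145. The T cell markers, at 4705, 8016 and 5558, and the monocyte and macrophage markers, at 59145, 58066 and 63675, did not run in the order of the replicates. The part of these, and of the higher median of replicate 1, in the spread of H2-Aa and H2-Ab1 was not tested.

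The members differed in how closely they varied together. H2-Aa and H2-Ab1 had a Pearson correlation of 0.99 over the 9 arrays, and of 0.98 for deviations from the genotype means. For H2-Ab1 and Cd74 these were 0.90 and 0.83, and for H2-Aa and Cd74 0.84 and 0.72. Cd74 also had 0.86 and 0.29 with H2-DMa, and 0.85 and 0.53 with Ciita. H2-DMa had 0.68 and 0.55 with H2-Aa, and 0.73 and 0.54 with H2-Ab1. H2-DMa and Ciita correlated over the 9 arrays (r = 0.89) but not within genotypes (r = 0.07), and H2-Aa and Ciita had 0.49 and -0.04. H2-Eb1 had 0.35 to 0.51 with the other members. These values are descriptions over 9 arrays in 3 genotypes, which also share array-wide scaling.

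The genes most like the mean pattern of the 6 members were Pdhx, Guca1a, Prkce, Zfp971, Cd209a, Tiam2, H2-Ea and Fbxo6, out of 7543 genes with a mean intensity over 100 and an SD of at least 0.2. Their Pearson correlation over the 9 arrays was 0.956 to 0.978, and 0.79 to 0.939 for deviations from genotype means. H2-Ea had the highest correlation of deviations. Pdhx encodes a subunit of the pyruvate dehydrogenase complex, Prkce a protein kinase C and Tiam2 an activator of Rac. Cd209a, a C-type lectin related to human DC-SIGN that marks monocyte-derived dendritic cells, had log2 intensities of 10.17, 10.43 and 10.25 on the Ccr2-/- arrays, 10.15, 10.37 and 10.90 on the Ccl2-/- arrays, and 10.97, 11.58 and 11.50 on the wild type arrays. As for H2-Aa, no array of either knockout reached the wild type arrays, and the first and the third Ccl2-/- arrays were the lowest and highest of their genotype. Cd209a fell to 0.479-fold in Ccr2-/- against wild type (adjusted p = 0.0123) and was at 0.546-fold in Ccl2-/- against wild type (adjusted p = 0.144).

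**Figure D3:**
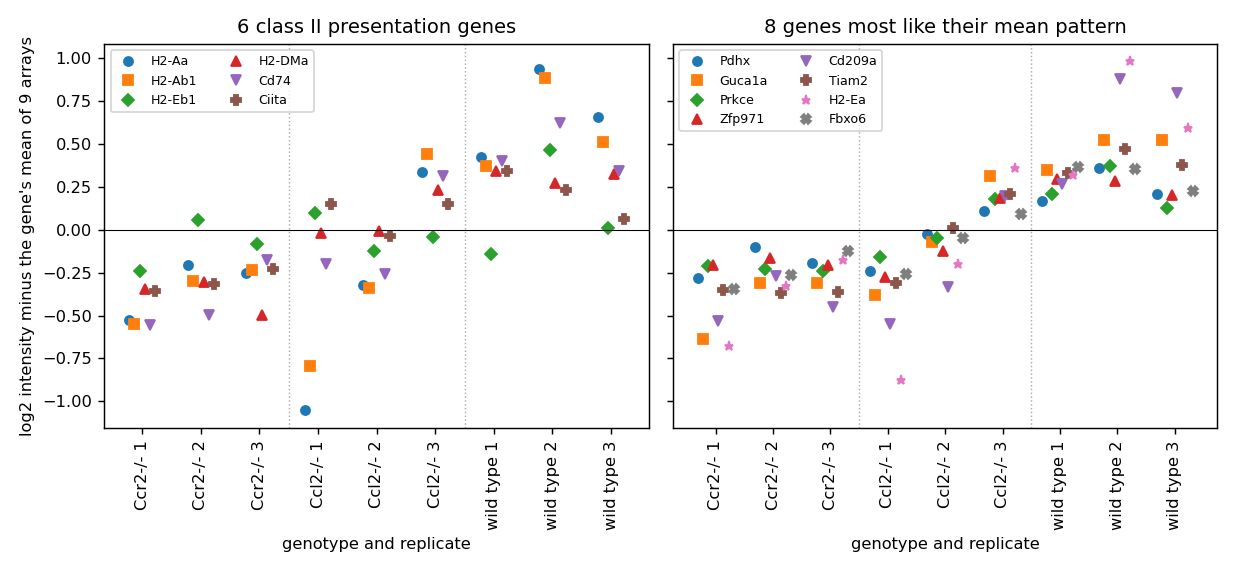
Log2 intensity minus the mean of the gene's 9 arrays, by genotype and replicate, for the 6 class II presentation genes (left) and the 8 genes with the most similar mean pattern (right). On the first Ccl2-/- array H2-Aa and H2-Ab1 lie lowest of the 6 genes in the left panel and H2-Ea lowest of the 8 in the right panel, H2-Eb1 stays near 0 on most arrays, and H2-Ea and Cd209a run with the I-A genes.

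The other genes of class II presentation were 23 by list, of which 21 were measured. Of these, 6 fell and 1 rose in Ccr2-/- against wild type, where 8.38% of all genes fell and 4.91% rose. The median log2 fold change of the list was -0.15. The called genes all act in endosomes or on the finished molecule. Ctsl, a cathepsin that cuts the invariant chain in thymic epithelium, had log2 intensities of 9.23, 9.60 and 9.54 on the Ccr2-/- arrays, 9.96, 10.26 and 10.45 on the Ccl2-/- arrays, and 11.08, 10.83 and 10.78 on the wild type arrays. The genotypes did not overlap, and Ctsl fell to 0.369-fold in Ccr2-/- against wild type (95% interval 0.291 to 0.468, adjusted p = 0.000829). Ctss, which makes the same cut in bone marrow-derived presenting cells, fell to 0.737-fold (adjusted p = 0.00498).

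Ifi30, the reductase GILT that opens disulfide bonds of antigens, had log2 intensities of 11.89, 12.09 and 12.24 on the Ccr2-/- arrays, 12.72, 12.65 and 12.78 on the Ccl2-/- arrays, and 13.14, 13.07 and 12.98 on the wild type arrays, again without overlap. It fell to 0.503-fold in Ccr2-/- against wild type (adjusted p = 0.000705). Lgmn, an asparagine endopeptidase, fell to 0.567-fold (adjusted p = 0.00378), and Sppl2a, which cleaves the last membrane-bound fragment of the invariant chain, fell to 0.851-fold (adjusted p = 0.0308). Ctsd, an aspartic protease of endosomes, rose to 1.34-fold (adjusted p = 0.0126). The gene that acts on the finished molecule was Marchf1, a ubiquitin ligase that removes class II from the cell surface. Its log2 intensities were 10.32, 10.36 and 10.39 on the Ccr2-/- arrays, 11.01, 11.00 and 11.16 on the Ccl2-/- arrays, and 11.34, 11.28 and 11.29 on the wild type arrays. Marchf1 fell to 0.519-fold in Ccr2-/- against wild type (95% interval 0.467 to 0.577, adjusted p = 0.000348).

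None of the 21 genes (0) was called by limma in Ccl2-/- against wild type, and the median log2 fold change was -0.03. At an unadjusted p under 0.05 there were 5, beside 13.1% of all genes. Ifi30 was at 0.787-fold (adjusted p = 0.189) and Marchf1 at 0.843-fold (adjusted p = 0.18). Between the knockouts 5 genes fell in Ccr2-/- monocytes (Ctss, Ctsl, Lgmn, Ifi30 and Marchf1), at 0.588- to 0.793-fold, beside 2.87% of all genes. In the same comparison 0 rose, beside 0.732% of all genes. After centring the arrays on their medians 1 of the list was called there, in the fit of the 6 arrays compared 0, and with an array left out 1 to 4. H2-Oa and H2-Ob, the chains of the H2-DM inhibitor, and the promoter-binding genes Rfx5, Rfxap, Rfxank, Creb1, Nfya, Nfyb and Nfyc were not called in any comparison. The log2 fold change in Ccr2-/- against wild type was -0.12 for H2-Oa and 0.13 for H2-Ob.

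Regulators of Ciita were 16 by list, of which 15 were measured. Of these, 4 rose and 5 fell in Ccr2-/- against wild type, where 4.91% of all genes rose and 8.38% fell. The median log2 fold change of the list was -0.03. Irf4, an interferon regulatory factor of dendritic and B cells, had log2 intensities of 8.81, 9.09 and 8.95 on the Ccr2-/- arrays, 8.84, 9.59 and 10.09 on the Ccl2-/- arrays, and 10.70, 10.53 and 10.54 on the wild type arrays. It fell to 0.321-fold in Ccr2-/- against wild type (adjusted p = 0.0043), and its correlation with the mean pattern of the members was 0.95 over the 9 arrays. Usf1, a factor of the interferon-inducible Ciita promoter, fell to 0.619-fold (adjusted p = 0.000772), and Ifngr2, a subunit of the interferon gamma receptor, to 0.618-fold (adjusted p = 0.00121). Ifng, the inducer itself, had log2 intensities of 10.50, 10.15 and 10.24 on the Ccr2-/- arrays, 10.16, 10.24 and 9.96 on the Ccl2-/- arrays, and 9.39, 9.51 and 9.45 on the wild type arrays, and rose to 1.80-fold in Ccr2-/- against wild type (adjusted p = 0.0015). It is made chiefly by NK and T cells, and all 12 NK cell markers rose in that comparison, at log2 fold changes of 0.36 to 1.26. Of 11 measured T cell markers 0 were called by limma there, and 0 were at an unadjusted p under 0.05, beside 23.2% of all genes. Their sum spanned 4309 to 14395 on Ccr2-/- arrays, 4705 to 8016 on Ccl2-/- arrays and 7820 to 8263 on wild type arrays. The part of these cells in the level of Ifng was not tested.

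The other called regulators, named after their values were seen, were the PU.1 gene Spi1 and the acetyltransferase Kat2b, which fell, and the kinase Jak1, the repressor Prdm1 and the cytokine signalling inhibitor Socs1, which rose. Their log2 fold changes were -0.30, -0.36, 0.36, 0.49 and 0.80. Against wild type 0 of 15 were called in Ccl2-/- monocytes by limma, and Ifng was at 1.59-fold (adjusted p = 0.0637). At an unadjusted p under 0.05 there were 6, beside 13.1% of all genes. Ifngr2 and Usf1, 2 of the 15, fell in Ccr2-/- against Ccl2-/-, beside 2.87% of all genes. Irf1, a factor of the interferon-inducible promoter, was at a log2 fold change of 0.08 in Ccr2-/- against wild type (adjusted p = 0.646).

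Of 8 genes for activating or inhibitory signals exchanged between presenting cells and T cells, 2 fell and 1 rose in Ccr2-/- against wild type. Over all genes 8.38% fell and 4.91% rose. Cd80, a ligand of CD28, had log2 intensities of 9.0, 9.01 and 9.57 on the Ccr2-/- arrays, 10.27, 9.94 and 10.32 on the Ccl2-/- arrays, and 10.13, 10.34 and 10.26 on the wild type arrays. Cd86, the other CD28 ligand, had 8.96, 9.04 and 9.21 on the Ccr2-/- arrays, 9.47, 9.69 and 9.92 on the Ccl2-/- arrays, and 9.86, 9.81 and 9.88 on the wild type arrays. For both genes the Ccr2-/- arrays were below all others, and the Ccl2-/- and wild type arrays overlapped. Cd80 fell to 0.482-fold and Cd86 to 0.583-fold against wild type (adjusted p = 0.004 and 0.00289), and to 0.505- and 0.650-fold against Ccl2-/- (adjusted p = 0.0234 and 0.0293). Tnfsf9, the ligand of 4-1BB, was at a log2 fold change of 0.37 in Ccr2-/- against wild type (adjusted p = 0.0265), and Icosl at -0.27 (adjusted p = 0.0638).

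Neighbouring genes of the MHC on chromosome 17 were read for comparison. Of the genes tested, the annotation places Psmb9, Tap1, Psmb8, Tap2 and H2-Ob between H2-DMa and H2-Ab1, and none of these was called in any comparison. The median log2 fold change of 28 measured neighbours was -0.01 in Ccr2-/- against wild type. Beside 8.38% of all genes that fell and 4.91% that rose there, 3 of the 28 fell and 0 rose. They were Ppt2, a lysosomal thioesterase, at 0.585-fold (adjusted p = 0.000669), Daxx, a histone chaperone, at 0.654-fold (adjusted p = 0.00192), and Tapbp, which encodes the class I loading factor tapasin, at a log2 fold change of -0.31 (adjusted p = 0.00794). Rgl2 was at -0.21 (adjusted p = 0.0505). Of the 28, 0 were called by limma in Ccl2-/- against wild type, with a median of 0.01. At an unadjusted p under 0.05 there were 2, beside 13.1% of all genes. Tapbp was the only 1 of 7 measured class I genes called in Ccr2-/- against wild type, and Nlrc5, the class I counterpart of Ciita, had a log2 fold change of 0.24 (adjusted p = 0.198).

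Markers of class II-positive cell types were set beside these values. Of 12 conventional dendritic cell markers 5 fell in Ccr2-/- against wild type, where 8.38% of all genes fell. The summed level was 8714 to 10084 on Ccr2-/- arrays, 10118 to 11145 on Ccl2-/- arrays and 10923 to 12359 on wild type arrays. Flt3, a growth factor receptor of dendritic cell precursors, had log2 intensities of 8.22, 8.40 and 8.15 on the Ccr2-/- arrays, 8.20, 8.29 and 8.36 on the Ccl2-/- arrays, and 8.92, 9.08 and 9.03 on the wild type arrays. It fell in both knockouts, to 0.592-fold in Ccr2-/- and 0.604-fold in Ccl2-/- (adjusted p = 0.00102 and 0.0254). Flt3 was the only marker of this list called in Ccl2-/- against wild type, where 0.0853% of all genes fell. Clec10a, a galactose lectin, fell to 0.254-fold in Ccr2-/- (adjusted p = 0.00103), Kmo, an enzyme of tryptophan breakdown, to 0.343-fold and Dpp4, the surface peptidase CD26, to 0.626-fold. Zbtb46, Xcr1 and Clec9a, which are more restricted to dendritic cells, were among the 7 markers not called. Their log2 fold changes in Ccr2-/- against wild type were 0.14, 0.19 and -0.04. Xcr1 lay at percentile 8.77 to 21.2 of the genes on the Ccr2-/- arrays and 9.92 to 12.8 on the wild type arrays. Clec9a lay at 27.8 to 31.1 and 29.9 to 32.6. How far background signal entered values of this level was not tested. Of the 12 markers 9 had a log2 fold change below 0, beside 47.7% of all genes, and the list median was -0.2.

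Of 13 measured B cell markers 2 rose and 0 fell in Ccr2-/- against wild type, beside 4.91% and 8.38% of all genes. The B cell sum was 10157 to 11583 on Ccr2-/- arrays, 9605 to 9920 on Ccl2-/- arrays and 9267 to 10430 on wild type arrays. The genes called were Cd22, an inhibitory B cell receptor, at 1.68-fold (adjusted p = 0.00752), and the tetraspanin Cd37 at 1.27-fold (adjusted p = 0.0187). Cd79b, a chain of the B cell receptor complex, had a log2 fold change of -0.43 (adjusted p = 0.107), and Ms4a1, which encodes CD20, had 0.07 (adjusted p = 0.955). Cd79a, the partner of Cd79b, lay at percentile 41.7 to 50.3 of the genes on Ccr2-/- arrays, 21.5 to 37.2 on Ccl2-/- arrays and 38.7 to 50.4 on wild type arrays. None of the 13 B cell markers was called by limma in Ccl2-/- against wild type, with 4 at an unadjusted p under 0.05, and the log2 fold change was -0.52 for Cd79b (unadjusted p = 0.00701, limma adjusted p = 0.196), -0.81 for Ms4a1 (unadjusted p = 0.0204, limma adjusted p = 0.28) and -0.42 for Cd79a (unadjusted p = 0.0469, limma adjusted p = 0.372). The correlation of these 3 genes with the mean pattern of the class II members was 0.78, 0.31 and 0.21 over the 9 arrays. For deviations from genotype means it was 0.56, 0.75 and 0.62. Of the 13 B cell markers 5 had a log2 fold change below 0 in Ccl2-/- against wild type, beside 31.3% of all genes. The list median there was 0.02, and 13.1% of all genes had an unadjusted p under 0.05. The summed B cell level rests largely on Cd37, at 5493 to 6292 on Ccr2-/- arrays, 4952 to 5501 on Ccl2-/- arrays and 4591 to 4763 on wild type arrays. Of 8 measured plasmacytoid dendritic cell markers 2 fell in Ccr2-/- against wild type, Bst2 and Tcf4, beside 8.38% of all genes. Siglech had a log2 fold change of 0.12. The part of dendritic or B cells in the levels of the class II genes was not tested.

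Monocyte lists were read as well, and not all of them fell. In Ccr2-/- against wild type 8.38% of all genes fell and 4.91% rose. Of 9 measured monocyte and macrophage markers 6 fell in Ccr2-/- against wild type, with a summed level of 49482 to 52819 on Ccr2-/- arrays, 58066 to 63675 on Ccl2-/- arrays and 61905 to 63737 on wild type arrays. Of 8 measured Ly-6Chi markers, among them Ccr2 itself, 8 fell, and their summed level was 14300 to 15494 on Ccr2-/- arrays, 28175 to 32949 on Ccl2-/- arrays and 38861 to 48430 on wild type arrays. Of 10 measured Ly-6Clo markers, genes of the other monocyte subset, 2 rose and 0 fell in Ccr2-/- against wild type. Their summed level was 55818 to 58941 on Ccr2-/- arrays, 60903 to 64932 on Ccl2-/- arrays and 50173 to 58987 on wild type arrays. In Ccl2-/- against wild type 0 of the 9 monocyte and macrophage markers and 1 of the 8 Ly-6Chi markers fell. Of the 10 Ly-6Clo markers 2 rose there and 0 fell. Over all genes 0.0853% fell and 0.0752% rose in that comparison. At an unadjusted p under 0.05 there were 1 of the 9, 8 of the 8 and 6 of the 10, beside 13.1% of all genes. Of the Ly-6Chi markers 8 were below 0 there, and of the Ly-6Clo markers 0. The summed level of the class II members was 7584 to 8278 on Ccr2-/- arrays, 8933 to 12447 on Ccl2-/- arrays and 13166 to 14942 on wild type arrays. The part of the monocyte subsets in the fall of H2-DMa, Cd74 and Ciita was not tested.

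**Figure D4:**
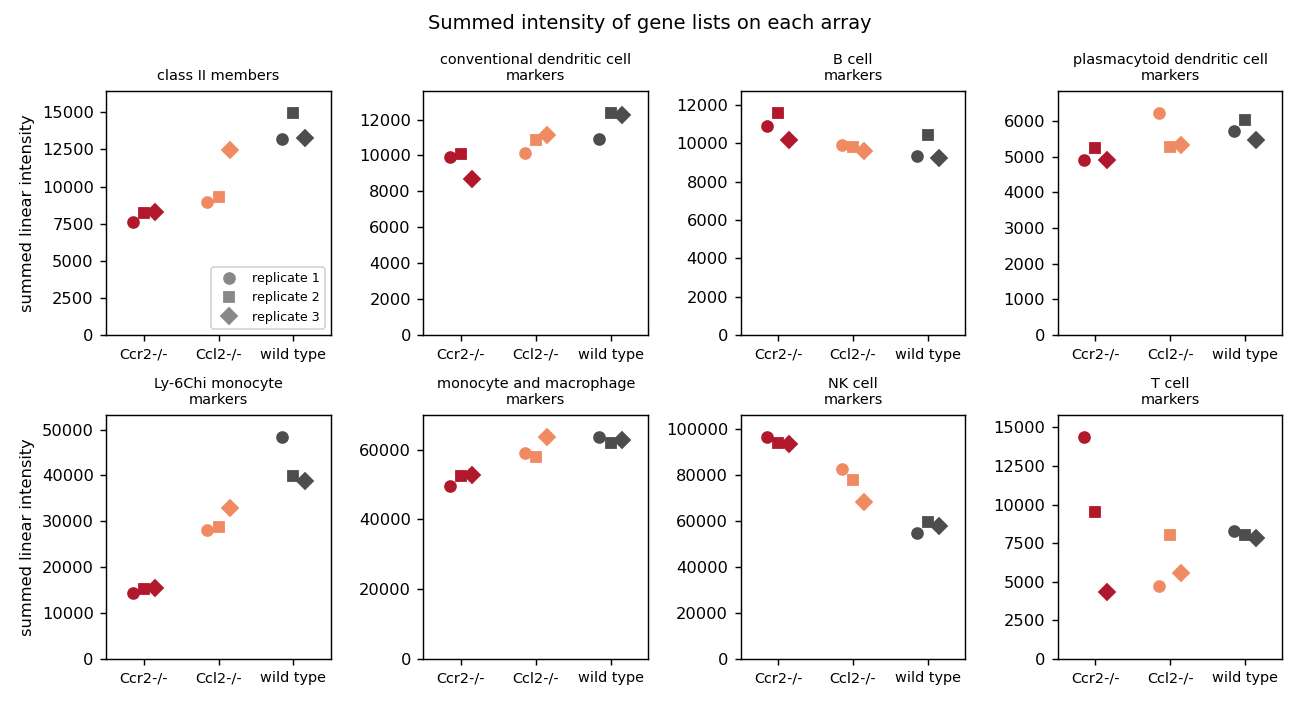
Summed linear intensity of the class II members and of marker lists on each array, by genotype, with symbols for the replicates and every vertical axis from 0. The class II members, Ly-6Chi markers and monocyte markers are lowest on the Ccr2-/- arrays (class II sum 7584 to 8278), the NK cell markers are highest there, and the B cell markers overlap between Ccr2-/- and wild type.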

How the data were processed

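The deposited values were linear intensities per transcript cluster, which the authors computed with dChip from Affymetrix Mouse Gene 1.0 ST arrays. The version, normalization and expression model of dChip are not given in the sources used here. Of 35512 clusters, 21789 carried 1 gene symbol, and a gene with several was read from the cluster of highest mean log2 value, for 19938 genes in all. Log2 was taken after raising values below 1 to 1, with no further scaling between arrays. The genotypes were compared over 9 arrays with limma 3.58.1 in R 4.3.3 (lmFit and eBayes, no replicate block), and p-values were adjusted by Benjamini and Hochberg's method over the 19938 genes. An adjusted p under 0.05 was a call. The model was tested on simulated data. Arrays have no read depth, and their number limits the precision. Every p measures the spread between arrays of pooled mice. The members and lists were chosen with earlier results of these data known. The rule for naming took the 6 members, the called and H2 genes of the pathway list, the 4 genes of smallest p of other lists, and the 8 most similar genes. It was not kept throughout. Further genes, among them Itgam, Zbtb46, Xcr1, Clec9a, Ms4a1 and Cd79a, were named outside it, and some lists were given mainly by counts and sums. Listed genes without a cluster of their own symbol were not analysed here. Alternatives were quantile normalization, centring of arrays, an intensity filter, an offset, an intensity trend, the mean of clusters, fits of 6 arrays, a replicate block, arrays left out in turn, the size limits and unadjusted p. Promoter sequences came from RefSeq, build GRCm38.p6, and gene order from the same assembly.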

Additional observations from a re-analysis of the deposited data

How the results depend on the processing

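Of the log2 fold changes of single members under the alternatives, 274 kept their direction and side of the threshold, 12 gained a call, 12 lost one and 8 turned round. The intensity filter, the intensity trend, the fits of 6 arrays and the replicate block could change only the adjusted p, not the log2 fold change. The same held for leaving out an array of the genotype not compared, and for the mean of clusters, as each member had 1. In these settings the direction was fixed in advance. In Ccr2-/- against wild type the 3 called members were 5 with an intensity trend, with only the 6 arrays compared, by the size limits and at an unadjusted p under 0.05, and 2 to 5 with an array left out. In Ccl2-/- against wild type the 0 called members were 3 by the size limits, 4 at an unadjusted p, and 0 to 2 with an array left out. In Ccr2-/- against Ccl2-/- the 1 called member was 0 with arrays centred or with only 6 arrays, 2 by the size limits or unadjusted p, and 0 to 1 with an array left out. The values that turned round were uncalled: H2-Eb1 in Ccr2-/- against Ccl2-/- (0.04 with quantile normalization, 0.04 with arrays centred, -0.14 to 0.00891 with an array left out), H2-Aa there (-0.33 to 0.36 with an array left out, among them -0.04 and -0.01), H2-Ab1 there (-0.42 to 0.20), and H2-Eb1 in Ccl2-/- against wild type (-0.26 to 0.04).

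Over all genes, the 32 calls in Ccl2-/- against wild type were 62 with quantile normalization, 105 with an offset of 50, 366 with an intensity trend, 2 with only 6 arrays and 6 to 476 with an array left out, the highest without replicate 3 of Ccl2-/-. The 2648 calls in Ccr2-/- against wild type were 1647 with arrays centred and 1663 to 3479 with an array left out, the lowest without replicate 1 of Ccr2-/-. The 718 in Ccr2-/- against Ccl2-/- were 261 with arrays centred, 1344 with a trend, 17 with only 6 arrays and 22 to 1189 with an array left out, the lowest without replicate 2 of Ccr2-/- and the highest without replicate 1 of Ccl2-/-. Of the pathway list, 1 gene was called in Ccl2-/- against wild type with a trend and 0 to 1 with an array left out, and 5 to 9 in Ccr2-/- against wild type with an array left out. In Ccr2-/- against Ccl2-/- the 5 calls were 3 with quantile normalization, 1 with arrays centred, 8 with a trend, 0 with only 6 arrays and 1 to 4 with an array left out. The cause of these shifts was not tested.

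The labels do not say whether same-numbered arrays of different genotypes were processed together. Their deviations correlated at -0.18 to 0.562, and an array matched its own number in another genotype best in 6 of 18 cases. With 3 arrays per genotype these values cannot settle whether they shared a batch. With the replicate block 5 members were called in Ccr2-/- against wild type, 0 in Ccl2-/- against wild type and 0 in Ccr2-/- against Ccl2-/-, where the pathway list kept a count of 1, and over all genes the block gave 2094, 7 and 167 calls. Signal over background was not read from these values, and 3 arrays per genotype limit the precision.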
